A study of Mus musculus with 6 samples.

Results

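Glycolysis splits glucose into pyruvate, and glycogen is the store of glucose that a working muscle fiber draws on first. The 38 genes described here encode the transporters, enzymes and regulators of both pathways. They were chosen by symbol, as a named list of pathway genes, with earlier results of these data known. They are 38 of the 55416 genes counted in tibialis anterior (TA) muscle. Of the 38, 36 passed the filter on low counts and were tested. The levels fit skeletal muscle. The members with the highest counts per kilobase of gene were Aldoa, Eno3, Pgam2, Pygm and Pfkm, which encode muscle forms of their enzymes. All 8 defining markers of skeletal muscle, Ckm and Acta1 among them, were tested.

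RNA was taken from TA muscle of 3 wild-type (WT) and 3 SELENOW knockout (KO) mice that had aged naturally to 24 months. Both lines were kept on a C57BL/6N background, and the KO line carries a CRISPR-Cas9 deletion of exon 4 of Selenow, the gene of selenoprotein W. The methods name aged mice as male unless stated otherwise, and name no muscle-specific driver, so the deletion is that of the whole line. The p-values measure the spread between these libraries, which the study counts as 3 mice a genotype. In replicate order, the WT libraries summed to 25351976, 29111213 and 25398186 counts and the KO libraries to 27815342, 27345022 and 27637175. The first WT replicate was matched to its column by elimination, because that column carries no number.

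Counts of the targeted gene were only slightly lower in KO. Selenow had 268, 245 and 219 TMM-scaled CPM (the gene's share of a library's counts after scaling by TMM factors) in WT and 193, 212 and 210 in KO. The highest KO value stayed under the lowest WT value, with a log2 fold change of -0.25 (standard error, SE, 0.14, edgeR adjusted p = 0.604). Exon 4 makes up 75 bases, or 10.2%, of the transcript annotated in GENCODE M21, and the counts are per gene. They therefore could not show whether exon 4 was lost. The study reports by Western blot that the protein was absent from KO TA muscle, where it describes the line under basal conditions. It does not name the sequenced aged mice as those blotted.

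In glycolysis, hexokinase traps glucose as a phosphate, phosphofructokinase commits it to breakdown, and the later steps yield ATP and pyruvate, which lactate dehydrogenase converts to lactate. Fast fibers, which make up most of mouse TA muscle, rely on this route and on glycogen, which glycogen phosphorylase breaks down and glycogen synthase builds. Fructose 2,6-bisphosphate, made and removed by the PFKFB enzymes, is the strongest allosteric activator of phosphofructokinase.

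The question asked of the counts was which of these genes differed between WT and KO muscle. Pfkfb3 was the 1 member past the thresholds that the study set for DEGs, an unadjusted p under 0.05 with a fold change over 1.5 or under 0.7. It was higher in KO. The study applied these thresholds to DESeq2 results, and here they were applied to edgeR results. The calls given here are therefore not the study's own. Among all genes, 5.35% of the 15623 tested genes passed these thresholds, 2.21% as higher and 3.14% as lower in KO, so 1 of 36 members is not above that share. Without the fold threshold, 3 of the 36 members had a p under 0.05, Pfkfb3 as higher and Pgk1 and Eno1 as lower, against 9.89% of all tested genes, 4.73% as higher and 5.16% as lower. No member had a Benjamini-Hochberg adjusted p under 0.05 in edgeR, nor did any other gene (0%), but leaving out 1 library gave 0 to 242 genes, with 242 without KO replicate 2, 16 without KO replicate 1 and 2 without WT replicate 3. DESeq2 gave 1 member and 45 genes with an adjusted p under 0.05, and 5 members (13.9%) with an unadjusted p under 0.05, against 8.26% of all genes in that fit.

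The members as a group lay slightly below the rest. Of the 36 tested members 24 had a negative and 12 a positive log2 fold change, with a median of -0.12. Of all tested genes 50.6% had a negative value, and their median was -0.0042. The median of the members was -0.054 without WT replicate 1, and 12 of the 36 members had their highest value in that library. The log2 fold changes ran from -0.50 for Ppp1r3c to 1.36 for Pfkfb3, and 27 of the 36 lay within 0.25 of 0. Genotypes were separate, without overlap of their libraries, for 6 members, 4 with KO below WT and 2 with KO above, while 7.87% and 7.53% of all tested genes were separated in these directions.

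**Figure D1:**
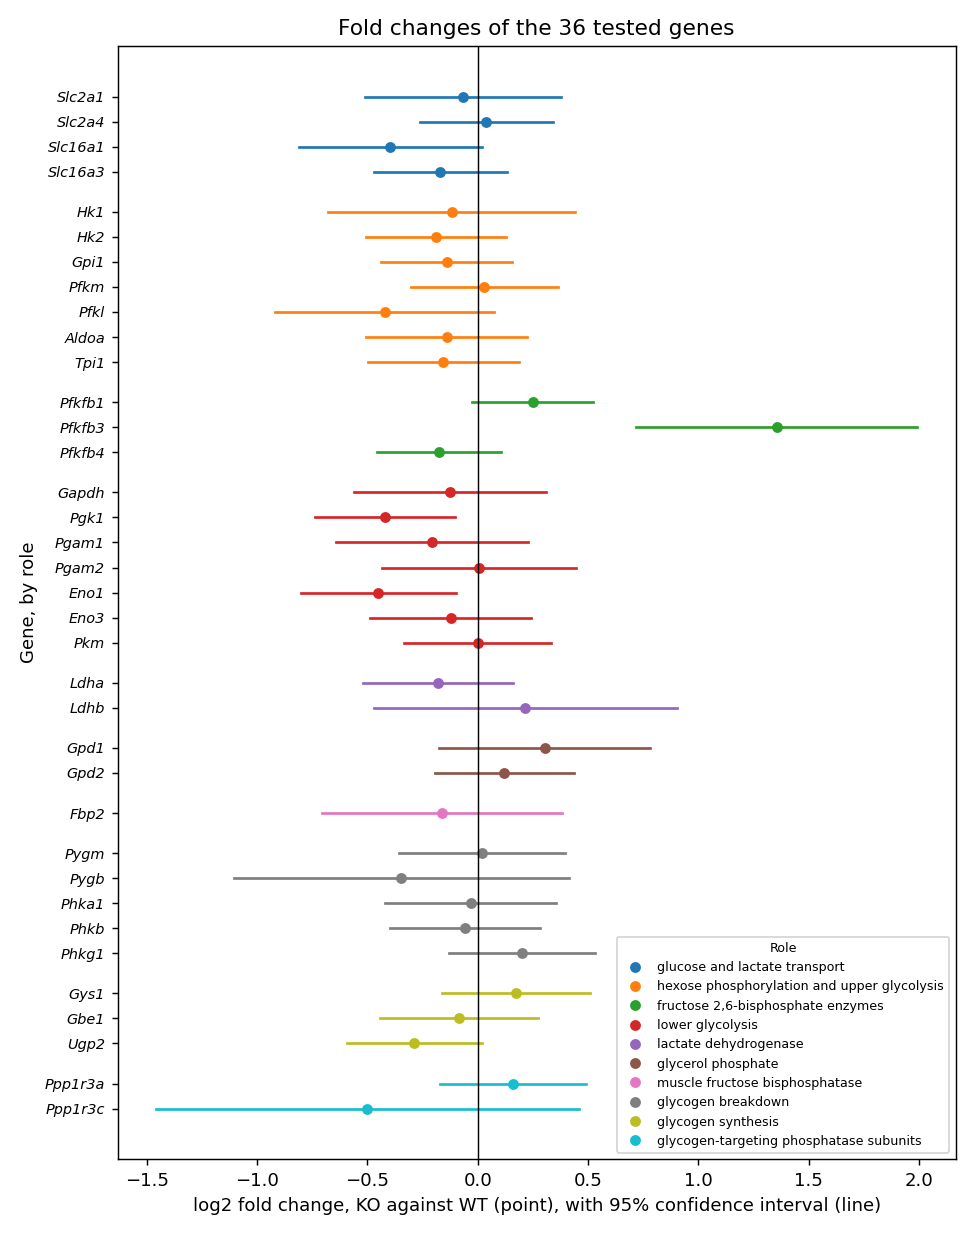
The log2 fold change of each tested gene (points) is drawn with its 95% confidence interval (lines), with the genes grouped by role on the vertical axis. Pfkfb3 lies at 1.36 and stands apart from the other 35, and the intervals of Pfkfb3, Pgk1 and Eno1 exclude 0.

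Levels spanned several orders of magnitude. Per kilobase of counted gene length, mean WT levels ran from 2974 CPM for Aldoa, the muscle aldolase, to 0.0345 CPM for Aldoc, the brain aldolase. In all, 11 members had more than 100 CPM per kilobase, and 5 had less than 1. The low members were Pfkl, Hk1, Pygb, Pygl and Aldoc, forms used mainly by other tissues. Aldoc and Pygl were not tested. Aldoc had 2 to 4 counts in each library, close to 3 counts, the floor set here for calling a gene present, and Pygl had 1 to 26.

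**Figure D2:**
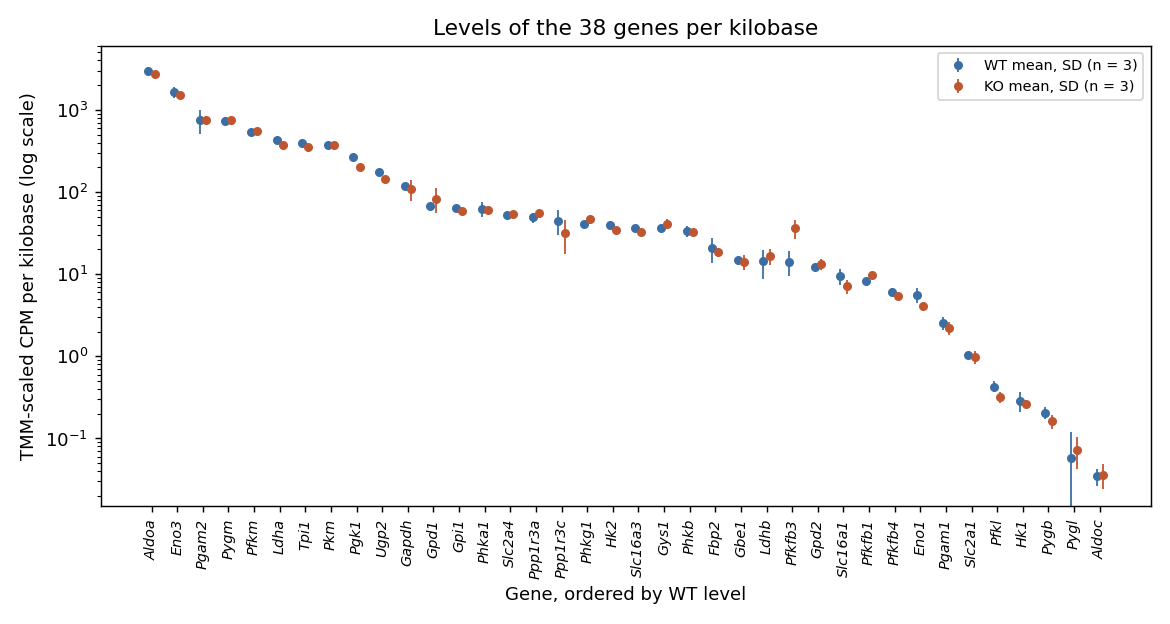
Mean TMM-scaled CPM per kilobase (vertical axis, log scale) is drawn for the 38 genes, ordered by WT level, with the SD of 3 libraries as bars. WT and KO lie side by side for most genes, and Pfkfb3 goes from 14.2 in WT to 36.2 in KO. The lower bar of Pygl in WT runs below the axis.

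Glucose and lactate transport came first in the order of the pathway. Slc2a4, the insulin-responsive glucose transporter GLUT4, and Slc2a1, its basal counterpart, had log2 fold changes of 0.038 and -0.066. The lactate transporters Slc16a1 (MCT1) and Slc16a3 (MCT4) had -0.40 and -0.17. None of the 4 had an unadjusted p under 0.05 in the edgeR fit reported. Slc16a1 came closest (SE 0.19, edgeR adjusted p = 0.528) and had an unadjusted p under 0.05 in DESeq2, without the filter on low counts, with a replicate block, and without WT replicate 2 or KO replicate 1. Without WT replicate 1 its log2 fold change was -0.22. The summed level of the 4 transporters was 440, 410 and 422 CPM in WT and 409, 385 and 397 CPM in KO, with KO just below WT.

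Among the 8 genes of hexose phosphorylation and upper glycolysis, 6 of the 7 tested had a negative log2 fold change, against 50.6% of all tested genes, and none had an unadjusted p under 0.05. Pfkm, the muscle phosphofructokinase, had 1862, 1848 and 1752 CPM in WT and 1739, 1837 and 2001 CPM in KO. The groups overlapped, and the log2 fold change of 0.030 had a 95% confidence interval of -0.30 to 0.36. Gpi1, which interconverts glucose and fructose phosphates, had 410, 408 and 425 CPM in WT and 368, 382 and 378 CPM in KO. The KO values were all lower, yet the log2 fold change was no more than -0.14 (SE 0.14, edgeR adjusted p = 0.758). Pfkl, the liver phosphofructokinase, is scarce here, at 2.60, 3.36 and 2.64 CPM in WT and 2.42, 1.79 and 2.21 CPM in KO. The groups were again separate, with a log2 fold change of -0.42 (SE 0.23, edgeR adjusted p = 0.581). Hk1, Hk2, Aldoa and Tpi1 lay between -0.19 and -0.12 with overlapping libraries. Aldoa holds the largest share of the summed level of all members, 33.1%.

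The fructose 2,6-bisphosphate enzymes held the largest difference. Each has a kinase domain that makes the activator and a phosphatase domain that removes it, and PFKFB3 has by far the highest ratio of kinase to phosphatase activity of the family. Pfkfb3 (ENSMUSG00000026773) had 2585, 4643 and 2187 counts in WT and 7215, 8195 and 5276 counts in KO. On the TMM-scaled CPM scale these were 105, 144.5 and 72.0 in WT and 291, 334 and 197 in KO. All KO libraries were above all WT libraries, and the lowest KO value, in replicate 3, was still above the highest WT value, in replicate 2.

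The fold change of Pfkfb3 was 2.56, a log2 fold change of 1.36 (standard error 0.28, 95% confidence interval 0.72 to 1.99). By unadjusted p it was rank 57 of the 15623 tested genes (adjusted p = 0.275 from edgeR). It was higher in KO under each alternative and with each library left out, with log2 fold changes from 1.13 to 1.63. The adjusted p moved far more, from 2.13e-11 in edgeR without the filter on low counts to 0.478 without WT replicate 1, and DESeq2 gave 6.24e-05.

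Pfkfb1, the form first known from liver and muscle, had 33.8, 33.3 and 31.8 CPM in WT and 40.5, 42.4 and 34.7 CPM in KO. The KO libraries were all higher, by a log2 fold change of 0.25 (SE 0.13, edgeR adjusted p = 0.552). Without KO replicate 3 it was 0.33, with an unadjusted p under 0.05, and without KO replicate 2 it was 0.19. Pfkfb4 overlapped between genotypes, with a log2 fold change of -0.18. The summed level of the 3 genes was 165, 210 and 134 CPM in WT and 360, 401 and 259 CPM in KO, with Pfkfb3 the most abundant of them.

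**Figure D3:**
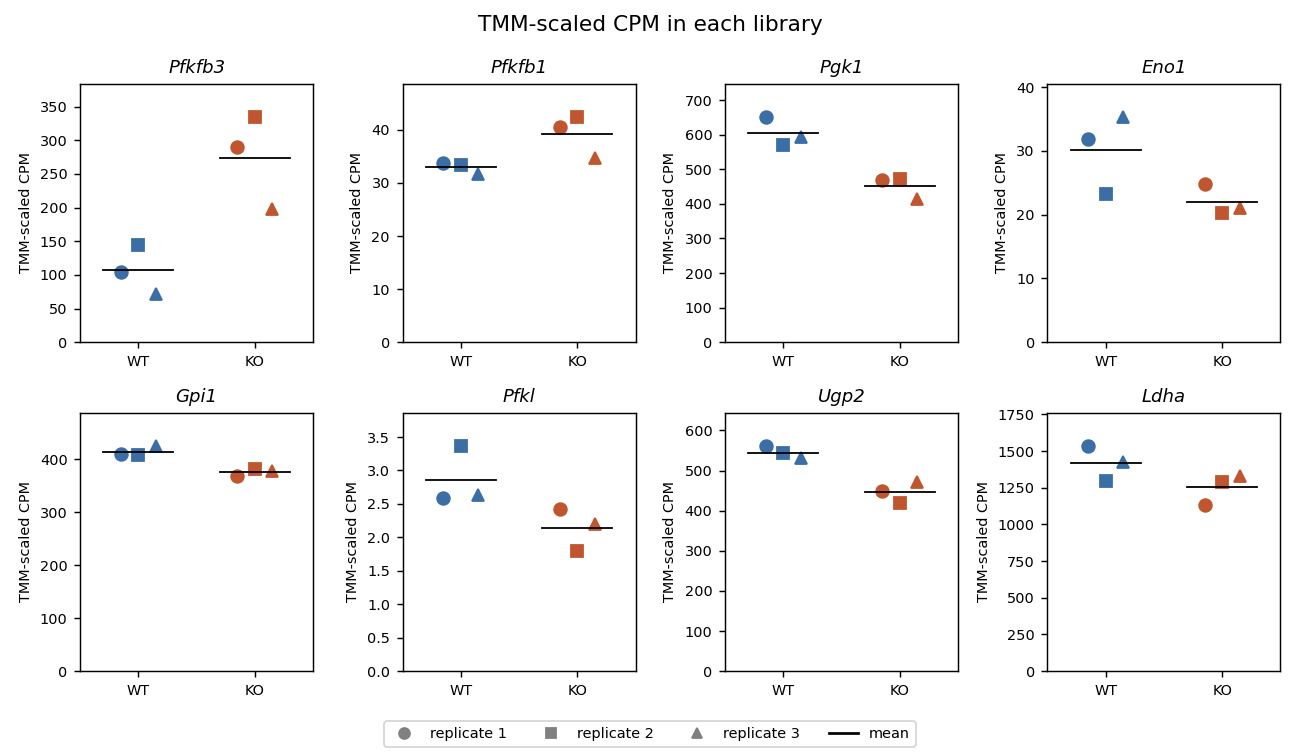
TMM-scaled CPM (vertical axis) is drawn for each library of 8 genes, with WT and KO side by side, a symbol for each replicate and a line at the mean. KO libraries are all above WT for Pfkfb3 and Pfkfb1 and all below for Pgk1, Gpi1, Pfkl and Ugp2, while those of Eno1 and Ldha overlap.

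The promoters of the member that was highest above WT and of the separated member of lower glycolysis are shown for reference, from RefSeq on GRCm38.p6, as 250 bases before to 50 bases after an annotated start. Of the 38 members 36 matched an entry in the RefSeq table, with 53 windows. The letters ACGTG are a form of the core of the hypoxia response element and part of the E-box CACGTG. They were searched on both strands and are in capitals. An ACGTG lay in 19.6% of all 32851 promoter windows and in 24 of the 53 windows of members, and CACGTG, which holds ACGTG on both strands, in 7.15% and in 6 of the 53. Pfkfb3 has 2 starts on the minus strand of chromosome 2, and the window of the first holds 1 ACGTG, that of the second 1 CACGTG. Pgk1 has 1 start on the plus strand of chromosome X with 2 separate ACGTG matches. The 3 windows of Eno1 hold no match, which says only that these letters are not there. Other forms of the core were not searched.
Pfkfb3 chr2:11553880-11554179: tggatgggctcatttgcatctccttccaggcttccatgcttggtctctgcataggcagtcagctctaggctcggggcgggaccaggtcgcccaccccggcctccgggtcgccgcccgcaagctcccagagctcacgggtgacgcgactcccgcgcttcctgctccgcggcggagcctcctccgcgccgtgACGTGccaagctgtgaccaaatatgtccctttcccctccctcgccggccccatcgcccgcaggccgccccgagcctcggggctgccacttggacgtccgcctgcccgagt
Pfkfb3 chr2:11502041-11502340: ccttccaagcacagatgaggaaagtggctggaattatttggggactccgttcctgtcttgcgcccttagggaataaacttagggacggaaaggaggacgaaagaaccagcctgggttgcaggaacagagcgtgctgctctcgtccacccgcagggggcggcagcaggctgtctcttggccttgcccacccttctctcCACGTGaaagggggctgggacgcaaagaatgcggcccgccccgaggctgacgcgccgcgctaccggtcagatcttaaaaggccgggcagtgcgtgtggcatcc
Pgk1 chrX:106186850-106187149: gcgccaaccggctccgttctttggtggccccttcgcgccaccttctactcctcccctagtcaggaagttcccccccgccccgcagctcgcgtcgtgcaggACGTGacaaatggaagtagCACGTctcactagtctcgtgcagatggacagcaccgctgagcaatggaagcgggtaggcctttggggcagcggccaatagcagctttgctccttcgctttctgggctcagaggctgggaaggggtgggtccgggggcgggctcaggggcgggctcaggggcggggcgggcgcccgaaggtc

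In lower glycolysis 6 of 7 genes had a negative log2 fold change, against 50.6% of all tested genes. An unadjusted p under 0.05 was found for 2 of the 7, both as lower, against 9.89% of all tested genes, 5.16% as lower. The other negative values did not pass, and that of Pkm was near 0. Pgk1 (ENSMUSG00000062070), phosphoglycerate kinase, the first step that yields ATP, had 650, 570 and 593 CPM in WT and 468, 473 and 414 CPM in KO. All KO libraries were below all WT libraries, with a log2 fold change of -0.42 (standard error 0.15, 95% confidence interval -0.74 to -0.10, adjusted p = 0.387 from edgeR). Without KO replicate 3 the log2 fold change was -0.36 and the unadjusted p was no longer under 0.05. Eno1 (ENSMUSG00000063524), the enolase of most non-muscle cells, had 31.9, 23.2 and 35.3 CPM in WT and 24.8, 20.3 and 21.1 CPM in KO. WT replicate 2 lay below KO replicate 1, so the groups overlapped. The log2 fold change was -0.45 (standard error 0.16, 95% confidence interval -0.80 to -0.10, adjusted p = 0.405 from edgeR). The unadjusted p of Eno1 was no longer under 0.05 without WT replicate 3 (-0.32), KO replicate 2 (-0.39) or KO replicate 3 (-0.42). In the other direction, Eno1 passed the thresholds for DEGs without WT replicate 2 (-0.60) and without KO replicate 1 (-0.54).

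Gapdh, glyceraldehyde phosphate dehydrogenase, had 503, 433 and 526 CPM in WT and 457, 566 and 317 CPM in KO. KO libraries held both the highest and the lowest value, and the log2 fold change of -0.13 (95% confidence interval -0.56 to 0.31) turned to 0.072 without KO replicate 3. Pkm and the muscle forms Pgam2 and Eno3, all of the last steps, had log2 fold changes of -0.00097, 0.0063 and -0.12. Each of the 3 changed sign in at least 1 other fit.

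Some of these genes have named copies in the count table, and no handling of reads that map to several places is given in the sources used here. Whether reads were shared with the copies was not tested. Gapdh-ps15, a pseudogene, held 526, 464 and 409 CPM in WT and 476, 485 and 431 CPM in KO, and its counts over the 6 libraries came to 99.4% of those of Gapdh. How the reads of the 2 genes divide between them cannot be told from the counts. Adding its 2 named copies, a choice made after seeing the data, gave Gapdh a log2 fold change of -0.067. Pgk1-rs7, a named copy of Pgk1, had 35.1, 39.0 and 36.1 CPM in WT and 20.6, 28.3 and 20.4 CPM in KO. Like Pgk1 it had all KO libraries below all WT libraries, with a log2 fold change of -0.67 (SE 0.15, edgeR adjusted p = 0.275). Its counts were 5.73% of those of Pgk1, and with copies added Pgk1 was at -0.43 and kept an unadjusted p under 0.05. Eno1b, a named copy of Eno1, was highest in WT replicate 3 at 9.72 CPM, and with it added Eno1 was at -0.43, also with an unadjusted p under 0.05. A second gene record named Aldoa held 0.217% of the counts of the main one.

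**Figure D4:**
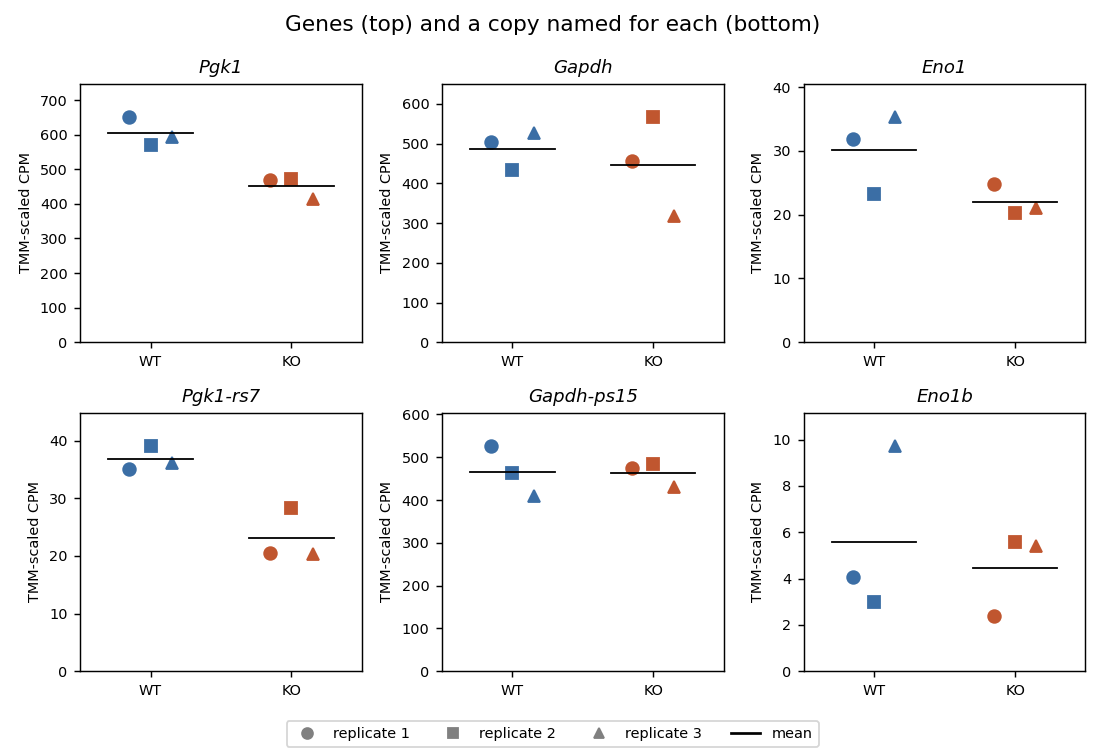
TMM-scaled CPM (vertical axis) of Pgk1, Gapdh and Eno1 is drawn above that of a copy named for each, by library, with a line at the mean of each genotype. Gapdh-ps15 is as high as Gapdh, and Pgk1-rs7 shows the same order of genotypes as Pgk1 at a level of 20.4 to 39.0 CPM.

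The lactate step and the glycerol phosphate shuttle did not differ beyond the spread of the libraries. Ldha, the muscle subunit of lactate dehydrogenase, had 1533, 1296 and 1427 CPM in WT and 1136, 1290 and 1332 CPM in KO. The groups overlapped, with a log2 fold change of -0.18 (SE 0.16, edgeR adjusted p = 0.733). Ldhb, the heart subunit, had 0.21, with 32.6 CPM in WT replicate 1 against 17.4 and 17.5 in the other WT libraries, and without that library it was 0.58, with an unadjusted p under 0.05. It was 0.062 without WT replicate 2, 0.061 without WT replicate 3 and 0.057 without KO replicate 3. Gpd1, which makes glycerol phosphate in the cytosol, was singled out after its values were seen: WT libraries were close together at 205, 194 and 200 CPM, while KO had 160, 320 and 259 CPM. KO replicate 1 was the lowest of the 6 and the other KO libraries the highest, and without it the log2 fold change went from 0.30 to 0.54, with an unadjusted p under 0.05. Without KO replicate 2 it was 0.073. Gpd2, the mitochondrial partner, and Fbp2, the muscle fructose bisphosphatase that runs the phosphofructokinase step backwards, had 0.12 and -0.16. Gpd2 was at 0.032 without KO replicate 2 and at 0.24 without KO replicate 1. Fbp2 was at -0.40 without WT replicate 3, with an unadjusted p under 0.05, at 0.064 without WT replicate 1 and at -0.064 without KO replicate 3.

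Glycogen breakdown genes were at similar levels in both genotypes. Pygm, muscle glycogen phosphorylase, the enzyme lost in McArdle disease, had 2206, 2714 and 2221 CPM in WT and 2056, 2493 and 2696 CPM in KO. The ranges overlapped almost entirely, and the log2 fold change of 0.021 had a 95% confidence interval of -0.36 to 0.40. Phosphorylase kinase switches this enzyme on, and its subunit genes Phka1, Phkb and Phkg1 had log2 fold changes of -0.031, -0.058 and 0.20. Pygb, the brain phosphorylase, had -0.35 at under 1.2 CPM in each library. None of the 5 tested genes had a p under 0.05 in edgeR.

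In glycogen synthesis, Ugp2, which makes the UDP-glucose that glycogen is built from, had 560, 543 and 531 CPM in WT and 448, 420 and 471 CPM in KO. The WT libraries were close together and all KO libraries lay below them, with a log2 fold change of -0.29 (SE 0.14, edgeR adjusted p = 0.540). In DESeq2 the log2 fold change was the same and the unadjusted p was under 0.05. Gys1, muscle glycogen synthase, had 162, 164 and 196 CPM in WT and 167, 217 and 205 CPM in KO. The groups overlapped, with a log2 fold change of 0.17 (SE 0.15, edgeR adjusted p = 0.740). Gbe1, the branching enzyme, had -0.085. The summed level of the 3 synthesis genes was 801, 782 and 813 CPM in WT and 707, 713 and 735 CPM in KO, with all KO libraries lower and Ugp2 the most abundant. Ppp1r3a and Ppp1r3c, subunits that bring protein phosphatase to glycogen, had 0.16 and -0.50. Ppp1r3c had the largest standard error of the tested members, 0.39, with 86.3, 166 and 116 CPM in WT and 51.8, 79.0 and 129 CPM in KO, and its log2 fold change was -0.90 without KO replicate 3, with an unadjusted p under 0.05 there and with a replicate block. It was -0.22 without WT replicate 2 and -0.23 without KO replicate 1.

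Ratios of paired genes within a library do not depend on how libraries are scaled, and 12 were compared. The log2 ratio of Pfkfb3 to Pfkfb1 per kilobase was 0.72, 1.20 and 0.27 in WT and 1.93, 2.07 and 1.6 in KO. That of Pfkfb3 to Pfkfb4 was 1.35, 1.52 and 0.59 in WT and 2.73, 3.15 and 2.24 in KO. Both ratios were separate between genotypes, and the means differed by 1.13 and 1.55. Both hold the counts of Pfkfb3, whose own libraries were already separate, so they are not results apart from that of Pfkfb3. The log2 ratio of Pfkl to Pfkm was lower in KO by a difference of -0.45, but WT replicate 1 and KO replicate 1 were both at -10.49. These 3 ratios reached p = 0.1, the smallest p that an exact permutation test of 3 against 3 libraries can give (two-sided, adjusted p = 0.4 over the 12 ratios). The other 9 ratios overlapped, among them Eno1 to Eno3 (difference -0.32, exact permutation p = 0.2), Ldhb to Ldha (0.43, exact permutation p = 0.3) and Gys1 to Pygm (0.15, exact permutation p = 0.5). Without WT replicate 3 the first was -0.11, and the last was 0.015 without WT replicate 2.

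**Figure D5:**
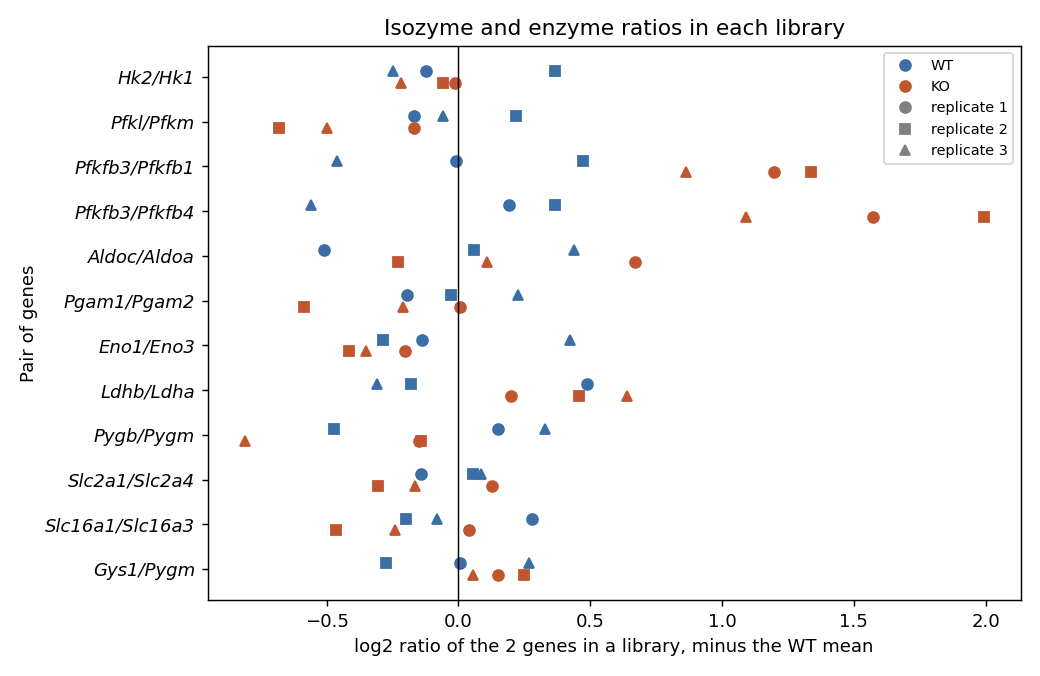
Each point is the log2 ratio of 2 genes in a library minus the WT mean of that ratio (horizontal axis), for 12 pairs of genes. KO libraries lie to the right of WT for both ratios with Pfkfb3 and overlap WT or touch it for the others.

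The summed level of all 38 genes overlapped between genotypes after TMM scaling, at 26760, 26070 and 23950 CPM in WT and 23460, 24360 and 24860 CPM in KO. As a share of all raw counts the members took 2.60%, 2.88% and 2.86% in WT and 2.09%, 2.19% and 2.41% in KO. Of raw counts from nuclear genes they took 4.15%, 4.06% and 4.08% in WT and 3.51%, 3.54% and 3.72% in KO. All KO libraries were below WT on both of these scales, which leave out the TMM factors. The factors were 0.974, 1.11 and 1.20 in WT and 0.893, 0.898 and 0.968 in KO. Mitochondrially encoded genes took 37.3%, 29.1% and 29.9% of counts in WT and 40.4%, 38.2% and 35.4% in KO, and leaving them out gave the members a median of -0.12.

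Other genes of the pathway were read from lists of glycolysis, glycogen, pyruvate entry and glucose uptake genes. Of 95 listed genes 77 were tested, 28 with a negative and 49 with a positive log2 fold change and a median of 0.046, where 50.6% of all genes were negative. Among them 2 had an unadjusted p under 0.05 as lower and 1 as higher, a smaller share than the 5.16% and 4.73% of all tested genes. Stbd1, which tethers glycogen to membranes for its delivery to the lysosome, had 56.5, 45.5 and 57.5 CPM in WT and 25.9, 42.7 and 30.5 CPM in KO. KO libraries were all below WT, with a log2 fold change of -0.69 (SE 0.18, edgeR adjusted p = 0.299), past the thresholds for DEGs. Pdp2, a phosphatase that activates pyruvate dehydrogenase, had 2.56, 3.18 and 1.88 CPM in WT and 2.90, 4.40 and 6.17 CPM in KO. It passed the thresholds as higher in KO at 0.82 (SE 0.29, edgeR adjusted p = 0.400), with KO replicate 1 inside the WT range. Irs1, an adaptor of the insulin receptor, had a log2 fold change of -0.37 (SE 0.15, edgeR adjusted p = 0.455).

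Several glycolytic genes are known targets of hypoxia-inducible factors, and 15 other hypoxia response genes were read beside them. Of these 9 had a negative and 6 a positive log2 fold change, with a median of -0.10. An unadjusted p under 0.05 was found for 3 of the 15, against 9.89% of all tested genes, and 1 passed the thresholds for DEGs, against 5.35%. Egln3, a prolyl hydroxylase that marks the factor for breakdown, was lower at -0.52 (adjusted p = 0.456 from edgeR) and passed the thresholds for DEGs. Higd1a was lower at -0.41 and Mxi1 higher at 0.37, each with an unadjusted p under 0.05. Vegfa, a defining target, had 0.14 (adjusted p = 0.836 from edgeR).

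Cell types other than muscle fibers can carry the non-muscle isozymes, and in bulk tissue fewer cells of a type and less RNA per cell cannot be told apart. The 4 fibroblast markers summed to 115, 63.7 and 208 CPM in WT and 113, 55.9 and 89.9 CPM in KO, led by Dcn, and all 4 had a negative log2 fold change with no p under 0.05. Leukocyte markers summed to 29.2, 17.9 and 66.8 CPM in WT and 27.6, 18.6 and 15.8 CPM in KO, led by Lyz2, with 8 of 10 tested and Cd79a at 0 in 4 libraries. Of the 8 leukocyte markers 6 had a negative log2 fold change, with a median of -0.89, Csf1r called lower and Cd3e, against the sign of most, called higher. Both sums and Eno1 were highest in WT replicate 3 and lowest among WT libraries in replicate 2, and their part in the Eno1 result was not tested. Endothelial markers, led by Cdh5, summed to 88.0, 66.6 and 53.7 CPM in WT and 81.4, 93.5 and 79.8 CPM in KO, with 5 of 5 positive and 1, Cdh5, with a p under 0.05.

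Among the marker lists, the summed level of red blood cell markers was the one that separated the genotypes, at 205, 293 and 174 CPM in WT and 155, 165 and 142 CPM in KO, led by Hbb-bs, with 5 of 5 negative and 3 with a p under 0.05. Their part in the results for Pgk1 and Eno1 was not tested. Adipocyte markers, nearly all Fabp4, overlapped at 61.5 to 121 CPM in WT and 85.9 to 109 CPM in KO, and Lep was at 0 in 4 libraries. Satellite cell markers, led by Myf5, came to 0.811 to 2.11 CPM in WT and 1.01 to 1.55 CPM in KO.

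Fiber type bears on these genes, since fast glycolytic fibers hold the most glycogen phosphorylase and the least oxidative enzyme. Fast fiber markers summed to 47630, 63490 and 51050 CPM in WT and 54670, 67740 and 63520 CPM in KO, led by Myh4. The groups overlapped, and 4 of 5 had a positive log2 fold change with no p under 0.05. Slow and oxidative markers summed to 1022, 1407 and 978 CPM in WT and 1145, 1390 and 1388 CPM in KO, of which Myh2 made up 96.1%. Of these 8 markers 6 had a negative log2 fold change, with none at a p under 0.05 and a median of -0.58. Of these 6, Tnnt1, Tnni1, Tnnc1 and Atp2a2 were highest in WT replicate 3, as were the fibroblast and leukocyte sums, and Tnni1 had 3.98, 1.31 and 13.3 CPM in WT. The 8 markers of skeletal muscle summed to 47700 to 60190 CPM in WT and 51770 to 53860 CPM in KO, led by Tnnt3, and had a median of 0.019.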

How the data were processed

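RNA sequencing of TA muscle from 3 WT and 3 KO mice gave 1 library per sample. Raw counts per gene and gene lengths are those the authors deposited. By the methods, Hisat2 2.1.0 placed the paired reads on the genome and featureCounts 1.6 made the count table. The methods name GRCm38, the submitters' processing notes GRCm39, so gene positions in the table were not used. Handling of strand is not given in the sources used here. Symbols were matched for 52083 of 55416 genes.

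Genes were kept with filterByExpr, TMM-scaled and tested with edgeR's quasi-likelihood test (version 4.0.16, R 4.3.3, robust), with Benjamini-Hochberg adjustment over 15623 genes. DESeq2 was version 1.42.0. The steps were tested on simulated data. Ratios were tested by exact permutation (scipy 1.17.1). At these depths 3 counts came to 0.103 to 0.118 CPM.

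Library values were given for members with a p under 0.05, separate genotypes, or the main enzyme of a branch; other genes of the pathway were named at a p under 0.05. Gpd1, Ldhb, Slc16a1, Ppp1r3c, Vegfa and the copies were named after their values were seen. The members and lists were chosen with earlier results of these data known, and the study's own list of DEGs, which holds Pfkfb3, had been read.

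Alternatives were DESeq2, its size factors, 2 other filters, robust estimation off, a replicate block, mitochondrial genes left out, a gene length offset, a log2 fold change over 1, copies added, and each library left out.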

Additional observations from a re-analysis of the deposited data

How the results depend on the processing

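Pfkfb3 kept its direction and an unadjusted p under 0.05 in all 15 other fits. It was the 1 member with an adjusted p under 0.05 in DESeq2, without the filter on low counts and with the replicate block, where the count of such members was 1 against 0 in the fit reported. DESeq2 gave 5 members with an unadjusted p under 0.05, 4 of them lower. No filter gave 1780 of 31780 genes (5.60%) past the thresholds for DEGs, against 836 of 15623 (5.35%), and 363 with an adjusted p under 0.05, against 0. An absolute log2 fold change over 1 called 1 member. No share of all genes is given for this threshold, so that count cannot be set against one. The larger count of DEGs goes with more genes tested, and the cause of the other differences was not tested.

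With the replicate block the counts were 2 members called, 1 of them lower, 5 with an unadjusted p under 0.05, 4 of them lower, and 1 with an adjusted p under 0.05. In that fit 5.56% of members and 5.70% of all genes were called, and 13.9% and 10.1% had an unadjusted p under 0.05. The deviations of same-numbered libraries correlated at 0.060, 0.044 and -0.074, and those of libraries with unlike numbers at -0.14 to 0.093. With so few libraries these values cannot show whether the numbers pair the samples.

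With each library left out in turn, 1 to 3 members were called, 0 to 2 of them lower, and 3 to 7 ratios did not overlap. Fewer libraries separate more easily, so this count of ratios cannot be set against that of all 6 libraries. An unadjusted p under 0.05 was found for 2 to 5 members, 1 to 2 higher and 1 to 3 lower. These were 5.41% (without KO replicate 2) to 13.5% (without KO replicate 1) of the members, against 7.30% and 10.7% of all genes in those fits. The fits with a library left out called 814 to 1072 genes, or 5.05% to 6.66% of those tested. Those that called 3 members, without WT replicate 2 and without KO replicate 1, called 993 and 1072 genes. These were 6.21% and 6.66% of all genes, against 8.11% of the members in each fit. In each of these fits the 2 lower members called were Eno1 and Slc16a1. No share of all genes called lower is given for them. The median of the members ran from -0.12 to -0.054. Of the 36 log2 fold changes 13 changed sign in some fit, and of these Fbp2 had an unadjusted p under 0.05 in a single fit, without WT replicate 3 (-0.40): Eno3 (-0.21 to 0.0091), Fbp2 (-0.40 to 0.064), Gapdh (-0.33 to 0.072), Gbe1 (-0.24 to 0.064), Hk1 (-0.33 to 0.025), Pfkm (-0.024 to 0.081), Pgam2 (-0.14 to 0.29), Phka1 (-0.19 to 0.078), Phkb (-0.18 to 0.017), Pkm (-0.041 to 0.045), Pygm (-0.064 to 0.13), Slc2a1 (-0.18 to 0.063) and Slc2a4 (-0.016 to 0.088). Pgam2 was at -0.0034 without the filter, and Pkm at 0.0016 without mitochondrial genes. Differences of the log2 ratios of Aldoc to Aldoa (-0.068 to 0.41) and Hk2 to Hk1 (-0.22 to 0.087) changed sign as well.

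Other members moved by more than 1.5 times with a library left out, without a change of sign. Over the left-out fits Hk2 ran from -0.25 to -0.095 (without WT replicate 1), Tpi1 from -0.22 to -0.054 (WT replicate 1), Pgam1 from -0.34 to -0.052 (WT replicate 1), Aldoa from -0.23 (WT replicate 3) to -0.082 (WT replicate 2), Pfkfb4 from -0.25 to -0.11 (WT replicate 2), Ldha from -0.24 to -0.11 (KO replicate 1), Pygb from -0.50 to -0.22 (KO replicate 3), Phkg1 from 0.12 (KO replicate 2) to 0.30, Gys1 from 0.10 (KO replicate 2) to 0.28 (KO replicate 1) and Ppp1r3a from 0.059 (WT replicate 1) to 0.25 (WT replicate 3). Those of Slc16a1, Ldhb, Gpd1, Gpd2 and Ppp1r3c are given beside their results. So did the ratios of Pgam1 to Pgam2 (-0.40 to -0.10), Eno1 to Eno3 (-0.47 to -0.11), Ldhb to Ldha (0.28 to 0.68), Pygb to Pygm (-0.61 to -0.15), Slc2a1 to Slc2a4 (-0.23 to -0.017), Slc16a1 to Slc16a3 (-0.35 to -0.083) and Gys1 to Pygm (0.015 to 0.29). In some fit 2 members, Pgk1 and Eno1, lost an unadjusted p under 0.05 and 7 gained it. With 3 libraries a genotype, the exact permutation test could not reach a p under 0.1.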
